A study of Mus musculus with 6 samples.

Results

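Collagen genes encode the chains of the collagens, the main proteins of bone matrix. They were taken as every row of the deposited expression table whose symbol has the form Col, a number, the letter a and a number. The table held 43 such genes among its 29587 rows, from 26 collagen types, and 29544 rows lay outside them. The groups were apoptotic osteoblasts of old mice (3 libraries) and of young mice (3 libraries). In both, pieces of bone were cultured, the adherent cells were passaged until they were called bone marrow mesenchymal stem cells, osteogenic medium turned these into osteoblasts, and ultraviolet light killed them before RNA was extracted. No genotype or drug set the groups apart, and the sources used here give no ages, no strain and no number of mice. The cells were killed in culture and were not osteoblasts that died in bone, and the labels do not state whether replicate libraries stem from different mice or culture dishes, so a p-value here reflects variation among libraries that could be purely technical. The study concerns why dead osteoblasts escape clearance by phagocytes in aging, and the comparison here asks which collagen transcripts differ with the age of the mice.

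A collagen molecule is a helix wound from 3 chains, which may be copies of 1 gene product or come from several genes of the same type. Fibrillar collagens (types I, II, III, V, XI, XXIV and XXVII) form or initiate fibrils. Among them type I, from Col1a1 and Col1a2, makes up most of the protein of bone matrix. Type IV forms the networks of basement membranes, type VI forms beaded microfibrils, types VIII and X form other networks, and fibril-associated types such as XII and XVI sit on the surface of fibrils. Cells making collagen also need prolyl and lysyl hydroxylases, the chaperone Serpinh1, propeptide proteases and lysyl oxidases.

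With all 6 libraries, 0 of the 21 collagen chains that could be tested differed between old and young libraries. The levels are in RPKM, reads scaled to gene length and library size. The other 22 chains stayed below the filter, which asked for 1 RPKM or more in 3 or more libraries and which 12015 genes passed. Limma's test on log2(RPKM + 1), called at a Benjamini-Hochberg adjusted p under 0.05, found 0 chains higher and 0 lower. Across all tested genes it called 1.57%, with 1.47% higher and 0.0999% lower in old libraries. At an unadjusted p under 0.05 it found 1 chain, Col27a1, against 11.2% of all tested genes, and limma's voom on reads recovered from the RPKM called 0. The median log2 fold change of the tested chains was 0.02, with a range of −0.43 to 0.53, beside 0.01 over all tested genes.

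Young replicate 1 stood apart from the other 5 libraries, and its collagen levels were low. Its Pearson correlation with the other young libraries over all tested genes was 0.949 and 0.962, against 0.996 for the pair of young replicates 2 and 3 and 0.995 to 0.997 for pairs of old libraries. It had the lowest depth, 64881180 recovered reads against 75456146 to 84535939 in the rest, and 1.05% of its reads lay in mitochondrially encoded genes, against 1.62 to 2.29% elsewhere. It was the lowest of the 6 libraries in 18 of 21 tested chains, where 48.2% of all tested genes had their lowest value in it. It lay below both other young libraries in 20 chains, above both in 0 and between them in 1, where 57.2% of all tested genes lay below and 36.4% above. Against the mean of young replicates 2 and 3 its log2 level was lower by a median of −0.92 over the tested chains and of −0.14 over all tested genes. The part of depth, RNA quality or cell state in these values was not tested. Counts of calls and the fold changes of the tested chains are therefore given with this library and without it, a removal made with its position known.

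Without young replicate 1, 13 of the 21 tested chains were lower in old libraries and 0 were higher by limma's test. The background in that comparison was high: 19.4% of all tested genes were lower and 13.2% higher. The median log2 fold change was −0.32 over the tested chains, with a range of −0.69 to 0.15, beside −0.05 over all tested genes. The 13 lower chains were Col1a1, Col1a2, Col2a1, Col3a1, Col5a1, Col11a1 and Col27a1 (fibrillar), Col4a5 and Col4a6 (basement membrane), Col6a3 (microfibril), Col8a2 (another network), and Col12a1 and Col16a1 (fibril-associated). In 17 of 21 chains every old library lay below young replicates 2 and 3, where 38.8% of all tested genes did so, and in 1 chain every old library lay above them, where 23.7% did. With all 6 libraries, every old library lay below every young one in Col8a1 and Col27a1 alone, 2 of 21 chains against 10.2% of tested genes. Every old library lay above every young one in Col18a1 alone, 1 of 21 against 10.6%.

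**Figure D1:**
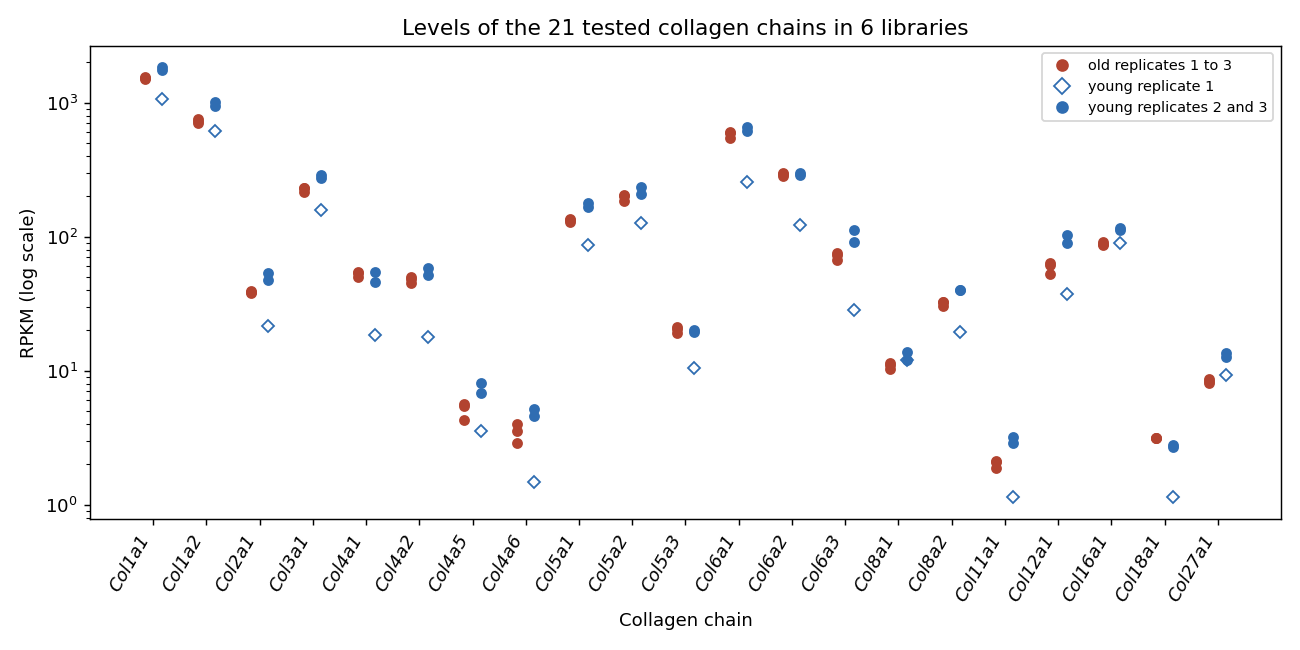
RPKM on a log axis for each of the 21 tested collagen chains, with 1 point for each library, old at left and young at right of each pair. Young replicate 1, the open diamond, was the lowest library in 18 of the 21 chains, and in 17 chains the 3 old libraries lay below the other 2 young ones.

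**Figure D2:**
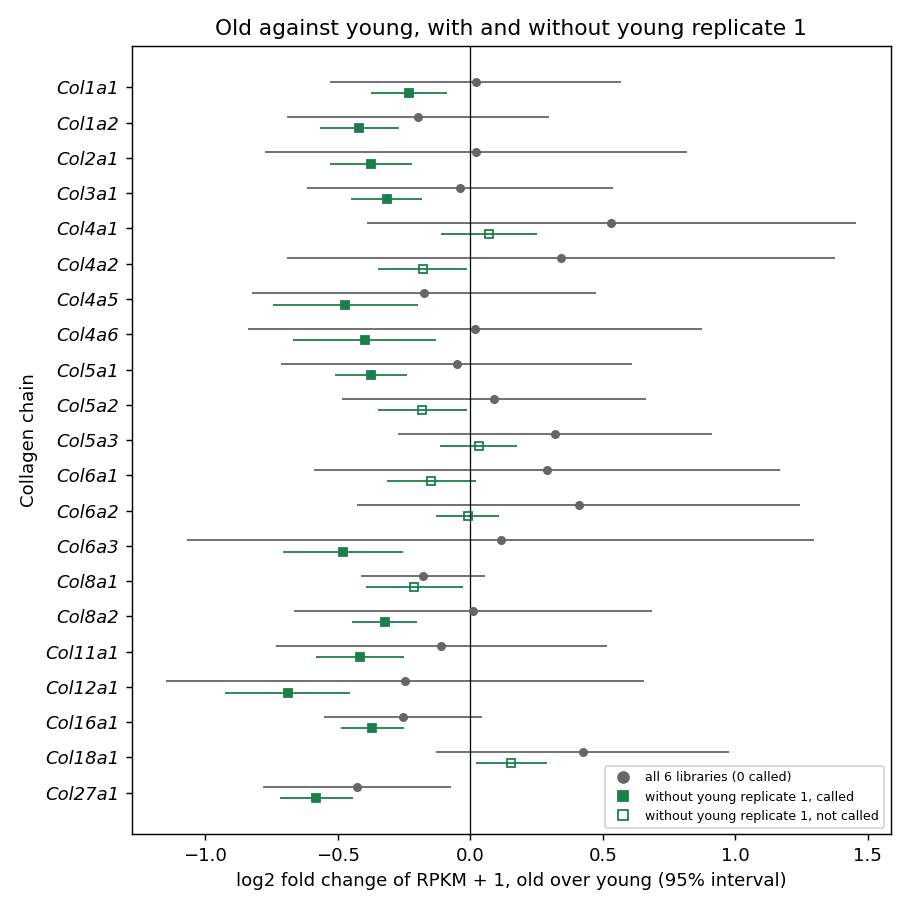
Log2 fold change of RPKM + 1, old over young, with its 95% interval from limma, for each tested chain. Grey circles use all 6 libraries, where 0 chains were called, and green squares leave out young replicate 1, where 13 chains were called lower (filled) and 8 were not called (open).

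Promoters of Col3a1 and Col5a1 are shown because both chains, which are neighbours in fibrils containing type I collagen, were lower in old libraries without young replicate 1, while the letters before their starts differ widely. Each is the 150 bases directly before the RefSeq start on the plus strand of GRCm38.p6, read 5′ to 3′, with matches to any of 3 motifs in capitals. The interval of Col3a1 was chr1:45311388-45311537 and that of Col5a1 was chr2:27886275-27886424.
Col3a1: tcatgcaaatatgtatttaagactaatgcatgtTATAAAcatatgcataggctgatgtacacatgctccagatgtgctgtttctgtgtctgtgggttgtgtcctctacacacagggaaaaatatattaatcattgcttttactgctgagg
Col5a1: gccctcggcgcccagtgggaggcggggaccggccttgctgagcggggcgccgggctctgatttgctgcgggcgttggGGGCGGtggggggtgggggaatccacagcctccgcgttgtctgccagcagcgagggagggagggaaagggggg
The capitals mark a TATA box (TATAAA, or TTTATA on the other strand) in Col3a1 and a GC box (GGGCGG or CCGCCC) in Col5a1. The third motif, the CCAAT box (CCAAT or ATTGG), had no match in either stretch, and the 3 motifs share no letters by overlap there. Over the full 250 bases before the start, 35.2% of the letters were G or C in Col3a1 and 76.4% in Col5a1, against 53.2% over all 32851 windows of the RefSeq table. The table had a window for 34 of the 43 collagen genes, 17 of the 21 tested chains and 10 of the 13 lower ones. The 17 tested chains had 19 windows, since some genes have more than 1, and matches are counted per gene. A GC box was present before 13 of these 17 genes, against 65.8% of tested genes with a window and 32.7% of all windows. A CCAAT box was present before 8 of 17, against 40.8% of tested genes and 33.8% of all windows. The TATA box of Col3a1 was the only one among the 17 genes, against 7.09% of tested genes and 12.4% of all windows. These matches describe letters and not sites of binding.

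Type I collagen was the most abundant type and took the larger part of the collagen reads in every library. All collagen genes together took 3.37%, 3.25% and 3.34% of the assigned reads in old replicates 1, 2 and 3, and 2.26%, 4.15% and 3.99% in young replicates 1, 2 and 3. The old libraries thus lay close together, above young replicate 1 and below the other young libraries. The share averaged 3.32 ± 0.062% in old and 3.47 ± 1.05% in young libraries (SD, n = 3 each). Type I alone took 1.95%, 1.90% and 1.89% in old libraries, against 1.46%, 2.41% and 2.38% in young ones. Summed collagen RPKM in old libraries was 0.982 times that in young libraries, 0.833 times that of young replicates 2 and 3, and 1.53 times that of young replicate 1. In bulk RNA, fewer collagen-making cells and less collagen RNA per cell cannot be told apart.

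**Figure D3:**
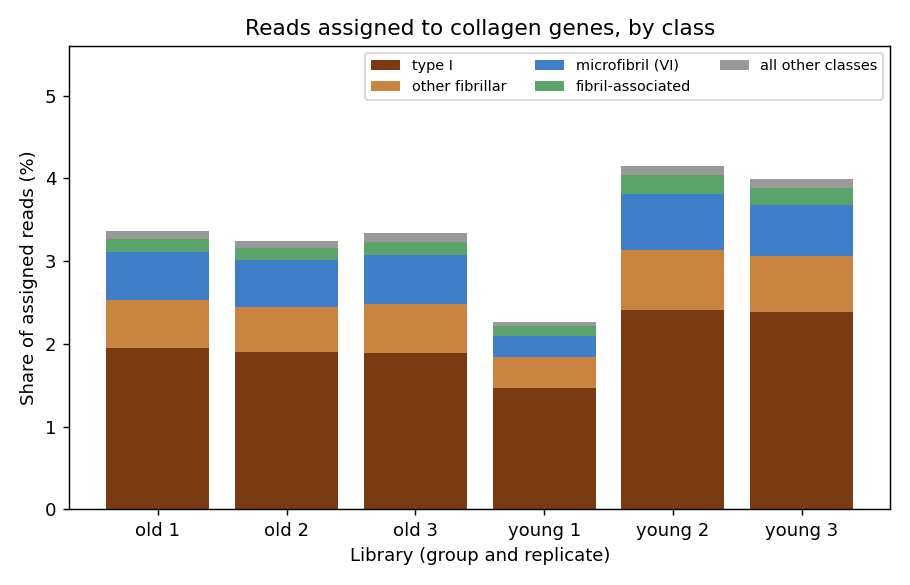
Share of assigned reads in collagen genes for each library, in percent, stacked by class. The old libraries reach 3.25 to 3.37%, young replicate 1 reaches 2.26%, and young replicates 2 and 3 reach 4.15% and 3.99%.

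Col1a1 (chromosome 11, 94936224 to 94953042, plus strand, mm10), which encodes the alpha 1 chain of type I collagen, had 1538, 1553 and 1492 RPKM in old libraries and 1062, 1759 and 1829 RPKM in young libraries. The old values fell between young replicate 1 and the other young libraries. Its log2 fold change was 0.02 ± 0.23 (SE; 95% interval −0.53 to 0.57; limma adjusted p = 0.995) with all libraries and −0.23 ± 0.06 (limma adjusted p = 0.0289) without young replicate 1. Among all rows of the table its level ranked 37, 37 and 37 in old libraries, and 78, 28 and 28 in young replicates 1, 2 and 3. Col1a2 (chromosome 6, 4504814 to 4541544, plus strand), the alpha 2 chain, had 759, 705 and 734 RPKM in old libraries and 617, 1012 and 949 RPKM in young libraries. Young replicate 1 was again lowest and the other young libraries highest. With all libraries the log2 fold change of Col1a2 was −0.20 ± 0.20 (limma adjusted p = 0.901), and −0.42 ± 0.06 (limma adjusted p = 0.00584) without young replicate 1.

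The ratio of the type I chains separated the groups with all 6 libraries. Col1a1 had 2.02, 2.20 and 2.03 times the RPKM of Col1a2 in old replicates 1, 2 and 3, and 1.72, 1.74 and 1.93 times in young replicates 1, 2 and 3. Every old ratio lay above every young one, and over all pairs of tested genes 22.7% of such ratios did not overlap in one direction or the other. The ratio had means of 2.09 ± 0.10 in old and 1.80 ± 0.114 in young libraries (SD, n = 3 each), which made the old ratio 1.16 times the young, or 1.14 times young replicates 2 and 3. For a single ratio, 3 libraries against 3 cannot give an exact two-sided permutation p below 0.1. The size of the ratio depends on gene length. The table gives Col1a2 a length of 12426 bases, the union of its exons, where its longest coding transcript in GENCODE M21 has 5348. Per kilobase of that transcript the ratio of Col1a1 to Col1a2 was 0.994 ± 0.048 in old and 0.856 ± 0.054 in young libraries (SD, n = 3 each). Its fold between groups does not depend on length.

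Col3a1 and Col2a1 had the same order of libraries as Col1a1 and Col1a2. Col3a1 (chromosome 1, 45311538 to 45349706, plus strand), which forms fibrils with type I in soft tissues and repair, had 229.5, 216 and 229 RPKM in old libraries, against 157, 287 and 272 RPKM in young libraries. The old values lay between young replicate 1 and the rest. The log2 fold change of Col3a1 was −0.04 ± 0.24 (limma adjusted p = 0.991), and −0.32 ± 0.06 (limma adjusted p = 0.00961) without young replicate 1. It shares 141 exonic bases, 1.44% of its own, with the predicted gene AC125167.1 on the same strand, which reached 407 RPKM, so reads there are uncertain. Col2a1 (chromosome 15, 97975602 to 98004695, minus strand), the fibrillar collagen of cartilage, had 37.7, 38.5 and 39.5 RPKM in old libraries and 21.5, 47.1 and 53.6 RPKM in young libraries. Old libraries again fell between young replicate 1 and the others, and its log2 fold change was 0.02 ± 0.33 (limma adjusted p = 0.997), or −0.37 ± 0.07 (limma adjusted p = 0.00913) without young replicate 1. Of 7 chondrocyte markers listed, 4 had values, and Acan, Cnmd and Matn1 had none under those names. Sox9 alone passed the filter, at 15.3, 16.5 and 17.1 RPKM in old and 12.7, 19.7 and 19.4 RPKM in young libraries. Hapln1, Comp and Matn3 stayed under 1 RPKM, the summed level of the 4 was 15.8 to 17.6 RPKM in old and 13.3 to 20.3 RPKM in young libraries, and the part of such cells in the Col2a1 values was not tested.

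Type V collagen starts type I fibrils and limits their width, and its chains parted from each other. Col5a1 (chromosome 2, 27886425 to 28039514, plus strand) had 128, 132 and 136 RPKM in old libraries and 86.9, 178 and 165 RPKM in young ones. The old libraries lay between young replicate 1 and the others, with a log2 fold change of −0.05 ± 0.27 (limma adjusted p = 0.99), and of −0.38 ± 0.06 (limma adjusted p = 0.0061) without young replicate 1. Col5a2 (chromosome 1, 45374321 to 45503282, minus strand) had 203, 185 and 199 RPKM in old libraries and 126, 235 and 209.6 RPKM in young ones, in the same order of libraries. Neither comparison called Col5a2, at a log2 fold change of 0.09 ± 0.24 with all libraries (limma adjusted p = 0.978) and −0.18 ± 0.07 without young replicate 1 (limma adjusted p = 0.0892). Col5a3 (chromosome 9, 20770050 to 20815067, minus strand) had 19.1, 20.4 and 21.2 RPKM in old libraries and 10.4, 20.2 and 19.3 RPKM in young ones. Here old libraries overlapped young replicates 2 and 3, and the log2 fold change was 0.32 ± 0.24 with all libraries (limma adjusted p = 0.81) and, without young replicate 1, 0.03 ± 0.06 (95% interval −0.11 to 0.18; limma adjusted p = 0.706). The ratio of Col5a3 to Col5a1 within a library was 0.1495, 0.154 and 0.156 in old libraries and 0.120, 0.113 and 0.117 in young libraries. This ratio did not overlap between the groups, as 22.7% of the ratios of all pairs of tested genes did not. Young replicate 1 lay with the other young libraries in it, and the old mean was 1.31 times the young, or 1.33 times young replicates 2 and 3.

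Col11a1 and Col27a1 are fibrillar chains best known from cartilage. Col11a1 (chromosome 3, 114030540 to 114220718, plus strand) had 2.07, 1.88 and 2.12 RPKM in old libraries and 1.13, 3.18 and 2.89 RPKM in young ones, with old libraries between young replicate 1 and the rest. The log2 fold change of Col11a1 was −0.11 ± 0.26 (limma adjusted p = 0.975), and −0.42 ± 0.07 (limma adjusted p = 0.00799) without young replicate 1. Col27a1 (chromosome 4, 63214004 to 63334991, plus strand) had 8.12, 8.62 and 8.41 RPKM in old libraries and 9.22, 12.6 and 13.5 RPKM in young libraries. All 3 old libraries lay below all 3 young ones. It had the largest negative log2 fold change of the tested chains with all libraries, −0.43 ± 0.15 (95% interval −0.78 to −0.07), which did not pass the test (limma adjusted p = 0.336). On removal of young replicate 1 it was −0.58 ± 0.06 (limma adjusted p = 0.00138). Col11a2 and Col24a1 stayed below the filter, at 0.558 to 0.695 and 0.487 to 0.712 RPKM in old libraries, against 0.478 to 0.800 and 0.241 to 0.837 RPKM in young ones.

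The fibril-associated chains Col12a1 and Col16a1 were both lower in old libraries without young replicate 1. Col12a1 (chromosome 9, 79598991 to 79718831, minus strand), whose product binds the surface of type I fibrils, had 61.0, 52.4 and 63.6 RPKM in old libraries, against 37.4, 103 and 88.9 RPKM in young libraries. Young replicate 1 lay below every old library and the other young libraries above them. Its log2 fold change was −0.25 ± 0.37 (95% interval −1.15 to 0.65; limma adjusted p = 0.954) with all libraries. Without young replicate 1 it was −0.69 ± 0.10 (95% interval −0.92 to −0.45; limma adjusted p = 0.00525), the lowest of the tested chains, and mean RPKM in old libraries was 0.617 times that in young replicates 2 and 3. Col16a1 (chromosome 4, 130047840 to 130099283, plus strand) had 87.7, 91.3 and 86.2 RPKM in old libraries and 89.7, 113 and 116 RPKM in young libraries. Young replicate 1 fell among the old libraries in this chain, at 0.783 times the mean of the other young ones. Its log2 fold change was −0.25 ± 0.12 (limma adjusted p = 0.555), and −0.37 ± 0.05 (limma adjusted p = 0.00444) without young replicate 1.

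Type VI collagen, the microfibril former around cells, came next to type I in RPKM. Young replicate 1 was at 0.402, 0.417 and 0.282 times the mean of the other young libraries in Col6a1, Col6a2 and Col6a3, and at 0.592 and 0.629 times in Col1a1 and Col1a2. Col6a1 (chromosome 10, 76708792 to 76726168, minus strand) had 588, 540.0 and 601 RPKM in old libraries, against 257, 663 and 613 RPKM in young libraries. Col6a2 (chromosome 10, 76595762 to 76623630, minus strand) had 284, 293 and 296 RPKM in old libraries, against 122, 297 and 289 RPKM in young libraries. Old libraries lay close to young replicates 2 and 3 in both chains and far above young replicate 1. Without that library the log2 fold change was −0.15 ± 0.07 for Col6a1 (limma adjusted p = 0.147) and −0.01 ± 0.05 for Col6a2 (95% interval −0.13 to 0.11; limma adjusted p = 0.888). With all libraries it was 0.29 ± 0.36 for Col6a1 (limma adjusted p = 0.935) and 0.41 ± 0.35 for Col6a2 (limma adjusted p = 0.84). Col6a3 (chromosome 1, 90765923 to 90843971, minus strand), the longest of these chains, had 73.2, 66.9 and 75.5 RPKM in old libraries and 28.4, 111 and 90.9 RPKM in young libraries. All old libraries lay between young replicate 1 and the other young libraries. Its log2 fold change was 0.11 ± 0.49 (95% interval −1.07 to 1.30; limma adjusted p = 0.988), and −0.48 ± 0.10 (limma adjusted p = 0.0134) without young replicate 1. The ratio of Col6a2 to Col6a1 was 0.483, 0.542 and 0.493 in old and 0.476, 0.448 and 0.472 in young libraries. It had no overlap, as was so for 22.7% of the ratios of all pairs of tested genes. The old mean of this ratio was 1.09 times the young, or 1.10 times young replicates 2 and 3. Col6a4, Col6a5 and Col6a6 stayed under 0.1 RPKM in every library.

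The basement membrane pair Col4a1 and Col4a2, which form the common type IV molecule, was not called in either comparison. Col4a1 (chromosome 8, 11198423 to 11312826, minus strand) had 53.3, 50.3 and 54.2 RPKM in old libraries and 18.5, 54.1 and 46.2 RPKM in young libraries. Old libraries overlapped young replicates 2 and 3 and lay far above young replicate 1. It had the largest positive log2 fold change of the tested chains with all libraries, 0.53 ± 0.38 (95% interval −0.39 to 1.46; limma adjusted p = 0.785), which shrank to 0.07 ± 0.08 (limma adjusted p = 0.492) without young replicate 1. Col4a2 (chromosome 8, 11312805 to 11449287, plus strand) had 48.3, 45.4 and 50.4 RPKM in old libraries and 17.8, 57.9 and 51.3 RPKM in young libraries, with old libraries between young replicate 1 and the others. Its log2 fold change was 0.34 ± 0.43 (limma adjusted p = 0.935), and −0.18 ± 0.07 (limma adjusted p = 0.093) without young replicate 1. These genes lie head to head, and 22 exonic bases of the table belong to both on opposite strands. The sources used here do not state whether counting used strand, so reads over those bases cannot be assigned to either with certainty. The same holds for 43 exonic bases of Col4a2 shared with Gm15419 and 113 of Col5a1 shared with Gm13372 on the opposite strand. The ratio of Col4a1 to Col4a2 was 1.10, 1.11 and 1.08 in old libraries and 1.04, 0.935 and 0.900 in young libraries. It had no overlap, as was so for 22.7% of the ratios of all pairs of tested genes. The old mean of this ratio was 1.14 times the young, or 1.19 times young replicates 2 and 3.

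The X-linked pair Col4a5 and Col4a6, also head to head with 1308 bases between their starts, was lower in old libraries without young replicate 1. Col4a5 (chromosome X, 141475385 to 141689234, plus strand) had 5.47, 4.30 and 5.63 RPKM in old libraries and 3.56, 8.11 and 6.86 RPKM in young libraries. Col4a6 (chromosome X, 141165403 to 141474076, minus strand) had 3.57, 2.88 and 3.98 RPKM in old libraries and 1.47, 5.21 and 4.56 RPKM in young libraries. In both, old libraries lay between young replicate 1 and the others, and old replicate 2 was the lowest old library, as it was in all 4 tested type IV chains. The log2 fold change without young replicate 1 was −0.47 ± 0.11 for Col4a5 (limma adjusted p = 0.0245) and −0.40 ± 0.11 for Col4a6 (limma adjusted p = 0.0379). With all libraries it was −0.17 ± 0.27 (limma adjusted p = 0.956) for Col4a5 and 0.02 ± 0.35 (limma adjusted p = 0.998) for Col4a6. Col4a3 and Col4a4 stayed under 0.1 RPKM in every library. The 5 endothelial markers listed, which mark cells rich in basement membrane, summed to 0.104 to 0.122 RPKM in old and 0.099 to 0.139 RPKM in young libraries.

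Among the remaining tested chains, type VIII is a network collagen of vessel walls and the cornea. Col8a1 (chromosome 16, 57624258 to 57754737, minus strand) had 10.97, 10.3 and 11.5 RPKM in old libraries and 11.9, 13.8 and 11.9 RPKM in young libraries. Young replicate 1 lay between the other young libraries in this chain and below both of them in the other 20. All old libraries lay below all young ones, by a log2 fold change of −0.18 ± 0.10 that did not pass the test (limma adjusted p = 0.628). On removal of young replicate 1 it was −0.21 ± 0.08 (limma adjusted p = 0.074). Col8a2 (chromosome 4, 126286793 to 126314330, plus strand) had 32.3, 32.3 and 30.3 RPKM in old libraries and 19.4, 39.6 and 40.0 RPKM in young libraries. The log2 fold change of Col8a2 was 0.01 ± 0.28 (limma adjusted p = 0.999), and −0.32 ± 0.05 (limma adjusted p = 0.00688) without young replicate 1, and the old libraries lay between young replicate 1 and the others. Col18a1 (chromosome 10, 77052178 to 77166548, minus strand), the multiplexin whose end is released as endostatin, had 3.16, 3.14 and 3.17 RPKM in old libraries and 1.13, 2.79 and 2.69 RPKM in young libraries. It was the chain in which every old library lay above every young one, with a log2 fold change of 0.42 ± 0.23 (limma adjusted p = 0.628), and 0.15 ± 0.06 (limma adjusted p = 0.0759) without young replicate 1.

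Of 10 chain ratios computed within libraries, 4 did not overlap between the groups with all 6 libraries, beside 22.7% of the ratios of all pairs of tested genes. On removal of young replicate 1, 7 did not overlap, beside 59.6%. The 4 with all libraries were Col1a1 to Col1a2, Col5a3 to Col5a1, Col4a1 to Col4a2 and Col6a2 to Col6a1. Each was higher in old as written, a direction set by which chain was placed first. Ratios that overlapped were those of Col3a1 to Col1a1 (mean 0.147 in old and 0.153 in young), Col5a2 to Col5a1 (1.49 and 1.35), Col11a1 to Col5a1, Col4a6 to Col4a5, Col6a3 to Col6a1 and Col8a1 to Col8a2. In Col6a3 to Col6a1 the old libraries had 0.125, 0.124 and 0.125, against 0.111, 0.168 and 0.148 in young libraries, so young replicates 2 and 3 lay above the old libraries and young replicate 1 below. Across the 21 chains, the log2 fold change without young replicate 1 was lower for chains of greater gene length in the table (Spearman's rho −0.51, Pearson's r −0.50), while the deviation of young replicate 1 from the other young libraries did not follow it (rho −0.01). These correlations are over genes of shared libraries and describe them only. With the length trend of each library removed, limma without young replicate 1 called 11 of the 21 chains lower and 1 higher. Of all 12015 tested genes it called 2175 lower and 1537 higher in that setting. The part of gene length in the calls was not tested.

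**Figure D4:**
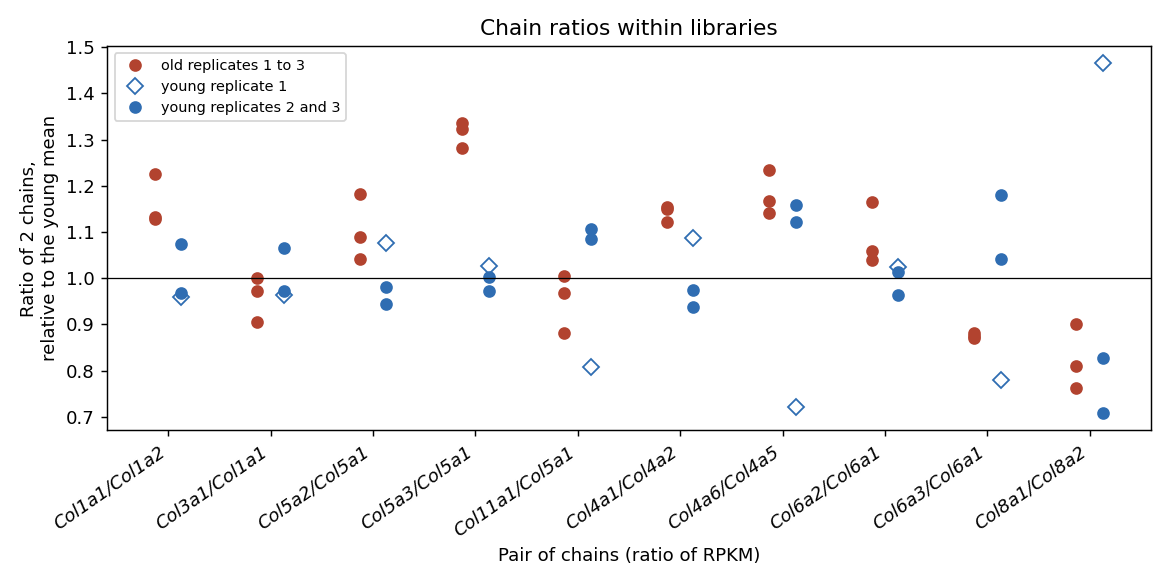
Ratio of the RPKM of each pair of chains in every library, divided by the mean ratio of the young libraries, with old libraries at left and young at right of each pair. Old and young points do not overlap for Col1a1 to Col1a2, Col5a3 to Col5a1, Col4a1 to Col4a2 and Col6a2 to Col6a1.

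The 22 chains below the filter were low in both groups, and 13 of them stayed under 0.1 RPKM in every library. Old libraries lay above every young library in 6 of them and below in 2, beside 6.08% and 3.76% of the 17572 genes below the filter. That background was not matched to the read counts of these chains, so the 6 cannot be read as an excess. Among tested genes the shares were 10.6% above and 10.2% below. The 6 were Col9a1, Col9a2, Col9a3, Col20a1, Col22a1 and Col28a1. Type IX collagen, from the first 3, coats type II fibrils in cartilage. Col9a2 had 0.397, 0.437 and 0.436 RPKM in old libraries, from 102 to 109 reads, against 0.209, 0.196 and 0.331 RPKM in young libraries, from 42 to 85 reads. Col9a3 had 0.335, 0.464 and 0.337 RPKM in old libraries and 0.312, 0.247 and 0.200 RPKM in young ones. Col9a1 was at 0.0233 to 0.0366 RPKM in old and 0.0102 to 0.0182 RPKM in young libraries, so the 3 type IX chains lay in the same order of groups. For Col9a1 this order rests on 10 to 14 reads in old and 4 to 6 reads in young libraries, near the floor. Col9a3 shares 234 exonic bases, 6.07% of its own, with Tcfl5 on the opposite strand, which stayed at or below 0.0274 RPKM.

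Col20a1, a fibril-associated chain, had 0.451, 0.411 and 0.375 RPKM in old libraries and 0.272, 0.267 and 0.213 RPKM in young ones, and shares 79 exonic bases, 1.88% of its own, with 9230112E08Rik on the same strand. Col28a1, a chain best known around nerves, had 0.181, 0.165 and 0.144 RPKM in old libraries and 0.0911, 0.0578 and 0.0787 RPKM in young libraries. Its counts were 57 to 75 reads in old and 22 to 32 reads in young libraries. Young replicate 1 did not stand below the other young libraries in either of these chains. With no filter, limma called 0 of these chains, and the smallest adjusted p was 0.124 for Col28a1, with a log2 fold change of 0.11 on the log2(RPKM + 1) scale, which understates such low genes. At an unadjusted p under 0.05 in that fit limma found Col9a1, Col9a2, Col20a1 and Col28a1 higher and none of the 22 lower, beside 5.12% of all genes higher and 3.46% lower. Those shares were not matched to the read counts of these chains either. Col7a1, the anchoring fibril chain of skin, was lower in every old library, at 0.727, 0.861 and 0.697 RPKM, against 0.957, 0.964 and 1.04 RPKM in young libraries. The transmembrane chain Col23a1 was likewise lower in every old library but under 0.1 RPKM throughout. Col10a1, the network collagen of hypertrophic cartilage, had 3, 0 and 4 reads in old and 2, 0 and 1 reads in young libraries, at or near the floor of 3 reads.

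**Figure D5:**
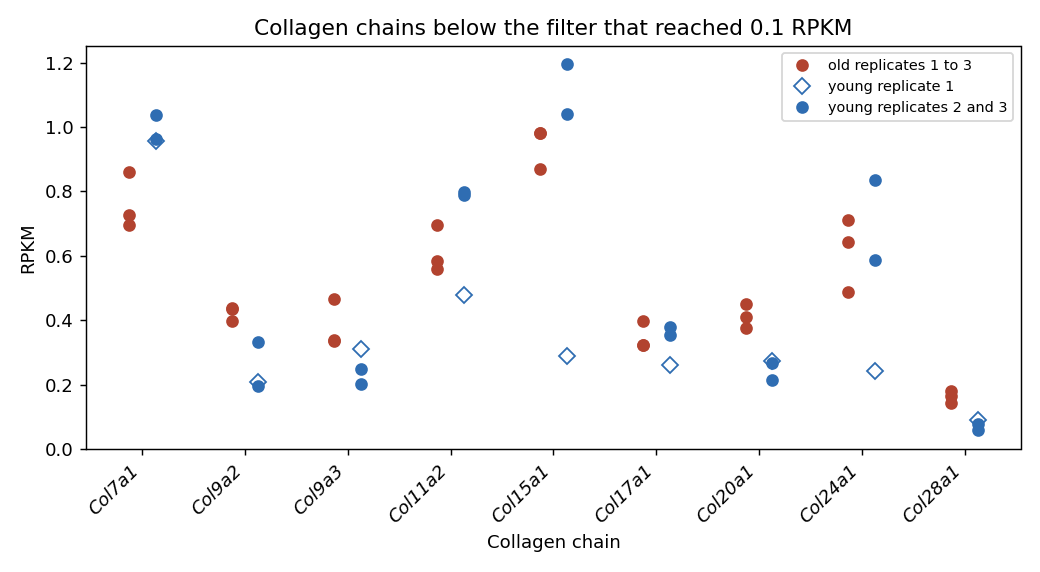
RPKM on a linear axis for the 9 chains that stayed below the filter but reached 0.1 RPKM in some library, old libraries at left and young at right. Old points lie above all young points for Col9a2, Col9a3, Col20a1 and Col28a1 and below them for Col7a1.

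Calls among the genes that modify, fold, cut and bind collagen were few with all 6 libraries, 1 in each direction. Of 72 listed names, 71 had values and 61 were tested. The name without values, Ccn2, is another name of Ctgf, which had them. With all 6 libraries limma called 1 higher (P4ha1) and 1 lower (Sp7) in old libraries. Over all tested genes limma called 1.47% higher and 0.0999% lower. Without young replicate 1 it called 4 higher and 21 lower, beside the 13.2% and 19.4% of all tested genes given above, with a median log2 fold change of −0.11. P4ha1, a catalytic subunit of prolyl 4-hydroxylase, which stabilises the helix, had 65.7, 65.1 and 65.4 RPKM in old libraries and 38.9, 45.4 and 44.0 RPKM in young libraries. Every old library lay above every young one, and its log2 fold change was 0.60 ± 0.09 (limma adjusted p = 0.0378), and 0.54 ± 0.05 (limma adjusted p = 0.000672) without young replicate 1. Sp7, the osteoblast transcription factor osterix, had 4.89, 4.88 and 4.94 RPKM in old libraries and 8.40, 7.89 and 9.02 RPKM in young libraries. Old libraries lay below all young ones, and its log2 fold change was −0.68 ± 0.09 (limma adjusted p = 0.0186), and −0.68 ± 0.07 (limma adjusted p = 0.00136) without young replicate 1. The higher count of these lists was 0 on leaving out any 1 of the other 5 libraries, so P4ha1 was not called there, and the lower count was 0 without young replicate 3 or any 1 old library, so neither was Sp7.

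Among 15 hydroxylases and glycosyltransferases, 14 were tested. Without young replicate 1, P4ha1, P3h2 and Ppib were higher and Plod2 was lower in old libraries by limma. Over all tested genes that comparison called 13.2% higher and 19.4% lower, the background of each call in this paragraph. P3h2, a prolyl 3-hydroxylase, had 13.2, 12.8 and 15.8 RPKM in old libraries and 4.74, 8.78 and 10.7 RPKM in young ones. Old libraries lay above all young ones, as in 10.6% of all tested genes. The log2 fold change of P3h2 was 0.78 ± 0.27 for all libraries (limma adjusted p = 0.339) and 0.48 ± 0.11 without young replicate 1 (limma adjusted p = 0.0207). P4hb, the subunit shared by prolyl 4-hydroxylases, had 484, 482 and 495 RPKM in old libraries and 430, 446 and 465 RPKM in young ones, with no call in either comparison. Of 9 chaperone and export genes, 0 were called with all libraries, and Fkbp14, Mia3, Mia2 and Sec23a, of which the last 3 serve the exit of procollagen from the endoplasmic reticulum, were lower without young replicate 1. Serpinh1, the collagen chaperone, had 346, 333 and 358 RPKM in old libraries and 273, 348 and 346 RPKM in young libraries, and its log2 fold change was 0.11 ± 0.13 with all libraries (limma adjusted p = 0.929) and −0.01 ± 0.05 without young replicate 1 (limma adjusted p = 0.918). Of 7 propeptide cleavage genes, 4 were tested, and Bmp1, the C-propeptide protease, and Pcolce2, an enhancer of that cleavage, were lower without young replicate 1. Of 5 lysyl oxidases, which cross-link collagen, 4 were tested and 0 were called in either comparison, and Lox had 28.1, 25.7 and 31.2 RPKM in old libraries and 23.4, 28.2 and 26.6 RPKM in young ones.

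All 8 fibril partners were tested, and without young replicate 1 Fn1, Fmod, Lum, Postn and Tnc were lower in old libraries by limma. Over all tested genes that comparison called 19.4% lower and 13.2% higher, the background of each call in this paragraph. Fn1, the fibronectin on which collagen is assembled, had 545, 515 and 539 RPKM in old libraries and 299, 690.2 and 623 RPKM in young libraries, the order of libraries seen in most chains. Sparc, a collagen-binding protein of bone, had 1031, 1045 and 1035 RPKM in old libraries and 1015, 1103 and 1165 RPKM in young ones, and was not called. Of 6 receptors tested among 9, Ddr2, Itga10, Itga11 and Mrc2 were lower without young replicate 1, and of 4 proteases tested among 6, Mmp2 and Mmp13 were. Mmp13, a collagenase, had 12.1, 11.2 and 21.6 RPKM in old libraries and 66.0, 25.1 and 46.8 RPKM in young libraries, with no overlap. Its log2 fold change was −1.51 ± 0.40 with all libraries (limma adjusted p = 0.191) and −1.20 ± 0.33 without young replicate 1 (limma adjusted p = 0.0335). All 13 regulators of type I collagen transcription with values were tested, and without young replicate 1 Atf4 was higher and Runx2, Sp7 and Sp3 were lower. Runx2, which acts on type I collagen genes in osteoblasts, had 4.03, 3.67 and 4.02 RPKM in old libraries and 4.18, 5.66 and 5.50 RPKM in young libraries, so the old libraries lay below every young one. This order, also that of Mmp13, was shared by 10.2% of all tested genes. The log2 fold change of Runx2 was −0.31 ± 0.12 with all libraries (limma adjusted p = 0.423), which did not pass the test. Without young replicate 1 it was −0.42 ± 0.06 (limma adjusted p = 0.00556).

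Markers of the labelled cell type were present only in part. Of 9 osteoblast markers 6 passed the filter. With all libraries limma called 1 lower (Sp7) and 1 higher (Spp1) in old libraries, beside 0.0999% and 1.47% of all tested genes. Spp1, the bone matrix protein osteopontin, averaged 732 ± 68.6 RPKM in old and 290.4 ± 75.9 RPKM in young libraries (SD, 3 libraries each), a log2 fold change of 1.36 ± 0.20 (limma adjusted p = 0.0307). Without young replicate 1, Sp7, Runx2 and Ibsp were lower and Spp1 and Dmp1 higher by limma, beside 19.4% and 13.2% of all tested genes. Alpl and Bglap stayed under 1 RPKM in every library. The 4 adipocyte markers stayed under 0.1 RPKM. The 3 tendon markers summed to 7.70 to 10.5 RPKM in old and 8.08 to 11.1 RPKM in young libraries, and the 3 epithelial markers with values, mostly Krt14, to 2.76 to 3.03 RPKM in old and 0.989 to 1.95 RPKM in young libraries. Of 5 blood markers with values, Ptprc was at or near 0 and Lyz2 carried most of the summed level, 8.53 to 9.98 RPKM in old and 7.94 to 9.22 RPKM in young libraries. Smooth muscle markers, mostly Acta2, summed to 536 to 611 RPKM in old and 504 to 511 RPKM in young libraries. The old sums lay above every young one, and their part in the collagen differences was not tested.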

How the data were processed

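The authors deposited 1 table of RPKM (reads per kilobase of gene length and of library size) for 6 libraries. Per the submitters' processing notes, fastp, STAR, HTSeq, edgeR and build mm10 were used, and the sources used here give no versions, annotation or strand setting. Multiplied by length, 100.0% of values were whole reads within a tolerance of 0.01, at 64881180 to 84535939 reads per library. Of genes with 1 to 5 reads, 77.5 to 79.3% had an even number, so reads are not independent molecules. In a gene of 1 kilobase, 3 reads are 0.0355 to 0.0462 RPKM, a floor for counting error only.

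Limma 3.58.1 in R 4.3.3 was fitted with a variance trend to log2(RPKM + 1) of the 12015 genes that reached 1 RPKM in 3 or more libraries, with group as the only term. Tests were two-sided and p-values were Benjamini-Hochberg adjusted over all these genes. No minimum fold change was set. Fold changes are old over young on that scale, which understates low genes. The fitting step was tested on simulated data. Their spread left out the deviation of young replicate 1 itself but was taken around group means that included this library. That test therefore covered only part of the spread this library brings. The deposited coordinates run from the first to the last exon base of a gene. Lengths of longest coding transcripts came from GENCODE M21, and promoters from RefSeq (GRCm38.p6). The background of the chain ratios was every pair of the 11995 tested genes with a value above 0 in each library. All 43 chains were accounted for. Values in every library were given for types I, III and V, Col4a1, Col4a2, Col4a5, Col6a1, Col6a2, Col6a3, called chains, the 5 largest fold changes each way, Col2a1 and Col10a1, and for called genes and up to 3 abundant members of each pathway list. Other values were chosen after they were seen. The members and lists were chosen with earlier results of these data known. Alternatives covered the pseudocount, the filter, scaling, variance models, thresholds, the replicate number as a block, library weights by the gene-by-gene method, voom on recovered reads and leaving out each library. Combinations with the removal of young replicate 1 were added after the data were seen.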

Additional observations from a re-analysis of the deposited data

How the results depend on the processing

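With all 6 libraries, 0 collagen chains were called under any alternative that kept equal weights and all libraries. Library weights, which gave young replicate 1 a weight of 0.0425, called 1 chain higher (Col18a1) and 13 lower, the same 13 as without that library. Of all 12015 tested genes they called 2119 higher and 2957 lower. Leaving out 1 library gave 0 chains higher and 0 to 13 lower, 13 without young replicate 1. Without young replicate 1, 1 chain (Col18a1) was higher under median-of-ratios scaling, quantile normalization, removal of the length trend, and voom on recovered reads. Across the second choices that kept the other 5 libraries, 11 to 15 chains were lower. Of all 12015 tested genes those choices called 1238 to 2964 lower and 894 to 1971 higher. Leaving out a second library left 7 to 12 lower, 7 without young replicate 2 as well. Of the 13 lower chains, Col1a2, Col2a1, Col5a1, Col8a2, Col12a1, Col16a1 and Col27a1 were lower under all 13 second choices and Col1a1 under 5.

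Over all tested genes, 177 were higher and 12 lower. The higher count was 99 with mean RPKM of at least 5, 2119 with library weights, 106 with a log2 fold change of at least 1, 82 with the replicate block, and 80 to 1589 without 1 library. The lower count was 25 with the length trend removed, 2957 with library weights, 62 at an adjusted p under 0.1, 0 with a log2 fold change of at least 1, 0 with the replicate block, and 0 to 2329 without 1 library. Without young replicate 1 the replicate block gave 894 higher and 1238 lower, and a second library left out gave 618 to 1418 higher and 470.0 to 2099 lower. For the pathway lists, the higher count was 0 with no filter, quantile normalization, a log2 fold change of at least 1 or the replicate block, 5 with library weights and 0 to 4 without 1 library. Their lower count was 24 with library weights, 0 with a log2 fold change of at least 1 or the replicate block, and 0 to 21 without 1 library. Deviations from the group means of same-numbered libraries had r of −0.03, −0.44 and 0.33, and those of differently numbered ones −0.42 to 0.43. Deviations within a group are tied to each other, so these values cannot decide whether a number pairs libraries. The labels do not state it, and the replicate block called 0 chains.

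Log2 fold changes of single chains changed sign as follows. With upper-quartile scaling Col1a1 was −0.012, Col2a1 −0.0086, Col4a6 −0.0017 and Col8a2 −0.020. With quantile normalization Col2a1 was −0.039, Col4a6 −0.0062 and Col8a2 −0.038. With library weights Col1a1 was −0.24, Col2a1 −0.43, Col4a2 −0.10, Col4a6 −0.30, Col5a2 −0.095, Col6a1 −0.080, Col6a2 −1.67e-05, Col6a3 −0.35 and Col8a2 −0.31. Without 1 library the values ran from −0.23 to 0.16 for Col1a1, −0.37 to 0.27 for Col2a1, −0.32 to 0.12 for Col3a1, −0.18 to 0.64 for Col4a2, −0.47 to 0.028 for Col4a5, −0.40 to 0.27 for Col4a6, −0.38 to 0.14 for Col5a1, −0.18 to 0.27 for Col5a2, −0.15 to 0.54 for Col6a1, −0.010 to 0.63 for Col6a2, −0.48 to 0.48 for Col6a3, −0.32 to 0.18 for Col8a2, −0.42 to 0.069 for Col11a1 and −0.69 to 0.026 for Col12a1. The ratio of Col1a1 to Col1a2, old over young, was 1.29 with quantile normalization and 1.13 to 1.21 without 1 library, and with transcript length the ratio was 0.994 in old and 0.856 in young libraries. Summed collagen RPKM, old over young, was 0.833 to 1.09 without 1 library. The cause of these changes was not tested. With 3 libraries a group, differences smaller than the spread that young replicate 1 brings could not be detected with all libraries.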
